A study of Rattus norvegicus with 10 samples.

Results

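Nitric oxide synthases, the soluble guanylate cyclase that senses nitric oxide, and the enzymes on either side of its product cGMP were measured in the nucleus tractus solitarii (NTS) of hypertensive and normotensive rats. The members are Nos1, Nos2, Nos3, Nos1ap, Gucy1a1, Gucy1a2, Gucy1b1, Prkg1, Prkg2 and Pde5a, and every probe set whose platform annotation gives 1 of them as its only gene symbol was taken. That gave 12 probe sets for 9 of the 10 members among 31042 non-control probe sets. Prkg1 had no such probe set and is not analysed here. A further probe set assigned jointly to Nos2 and a Nos2 pseudogene was left out. Gucy1a1, Gucy1b1 and Nos1ap have 2 probe sets each, and 6 members have 1.

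Spontaneously hypertensive rats (SHR) become hypertensive as they mature, and Wistar-Kyoto rats (WKY) are the normotensive strain they are usually set against. Both groups were male rats aged 10 to 13 weeks, with no treatment, transgene or deletion named, and each group holds 5 one-colour Affymetrix Rat 230 2.0 arrays of dissected NTS, the brainstem nucleus in which baroreceptor afferents end. The arrays are described in the series as independent replicates, but each sample is also described as tissue of 5 animals. Whether an array is 1 animal or a pool is therefore not known. The tests below set the strain difference against the spread between arrays of a strain, whatever an array holds. Beyond blood pressure the strains differ at many loci, so strain and hypertension cannot be told apart.

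Nitric oxide is made from L-arginine by 3 synthases: the neuronal Nos1, the inducible Nos2 and the endothelial Nos3. It diffuses to neighbouring cells and binds the haem of soluble guanylate cyclase, a heterodimer of an alpha subunit (Gucy1a1 or Gucy1a2) and the beta subunit Gucy1b1, which then turns GTP into cGMP. cGMP activates the protein kinases Prkg1 and Prkg2 and is broken down by phosphodiesterases such as Pde5a. In the NTS, nitric oxide made by neurons and vessels is known to modulate baroreflex transmission and blood pressure.

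Gucy1a1 and Gucy1b1 are neighbours on rat chromosome 2, with 0 protein-coding genes annotated between them, and both are transcribed from the minus strand. Their start windows are shown because the member transcripts that differed between strains in the test below come from this gene pair. Each window runs from 250 bases before to 50 bases after a start site in RefSeq's annotation of assembly GRCr8, and it is the sequence of the reference strain, not of SHR or WKY. That of Gucy1a1 (chr2:169779574-169779873, minus strand) lies inside the gene's annotated extent, so it belongs to 1 of its starts, and that of Gucy1b1 is at chr2:169696938-169697237, minus strand. Capitals mark CCAAT and GGGCGG on either strand; in Gucy1a1 the match to CCAAT, read on the other strand as ATTGG, overlaps the match to GGGCGG.
Gucy1a1: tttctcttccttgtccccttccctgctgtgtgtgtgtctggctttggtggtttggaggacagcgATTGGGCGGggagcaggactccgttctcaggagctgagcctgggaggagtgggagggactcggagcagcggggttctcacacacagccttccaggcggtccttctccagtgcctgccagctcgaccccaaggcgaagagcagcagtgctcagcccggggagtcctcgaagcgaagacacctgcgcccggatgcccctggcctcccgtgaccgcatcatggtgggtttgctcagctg
Gucy1b1: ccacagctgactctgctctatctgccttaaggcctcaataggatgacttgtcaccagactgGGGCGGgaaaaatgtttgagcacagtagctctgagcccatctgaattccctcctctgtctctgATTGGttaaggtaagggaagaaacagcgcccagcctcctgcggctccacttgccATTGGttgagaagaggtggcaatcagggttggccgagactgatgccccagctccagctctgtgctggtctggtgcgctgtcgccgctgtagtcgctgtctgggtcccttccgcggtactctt

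The Gucy1b1 window holds 2 matches to CCAAT and 1 to GGGCGG, and the Gucy1a1 window holds 1 of each. At least 1 CCAAT stands in 37.5% of the 33469 RefSeq windows of this length, 2 or more in 11.2%, and GGGCGG in 33.1%. The letters TGACGTCA (in 1.83% of windows) and TATAAA (in 14.2%) are in neither window on either strand.

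The alpha subunit gene Gucy1a1 was higher and the beta subunit gene Gucy1b1 lower in SHR, and these were the members that passed the test. A probe set was tested if at least 5 of 10 arrays reached that array's 40th percentile of signal, which kept 18846 probe sets, among them 8 of the 12 for 5 of the members. The test was limma on log2(signal + 16) over all kept probe sets, and passing means a Benjamini-Hochberg adjusted p below 0.05. Of the 8 kept member probe sets 3 passed, 1 higher and 2 lower in SHR, against 4.26% of all kept probe sets (2.06% higher, 2.20% lower). The groups did not overlap for 2 of the 8, against 6.13% of all kept probe sets. The median absolute log2 difference of the 8 was 0.26, and that of all kept probe sets 0.12. The members were chosen with earlier results of these data known, and Gucy1a1 and Gucy1b1 supply 2 probe sets each. These figures therefore describe the members and do not test the pathway.

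**Figure D1:**
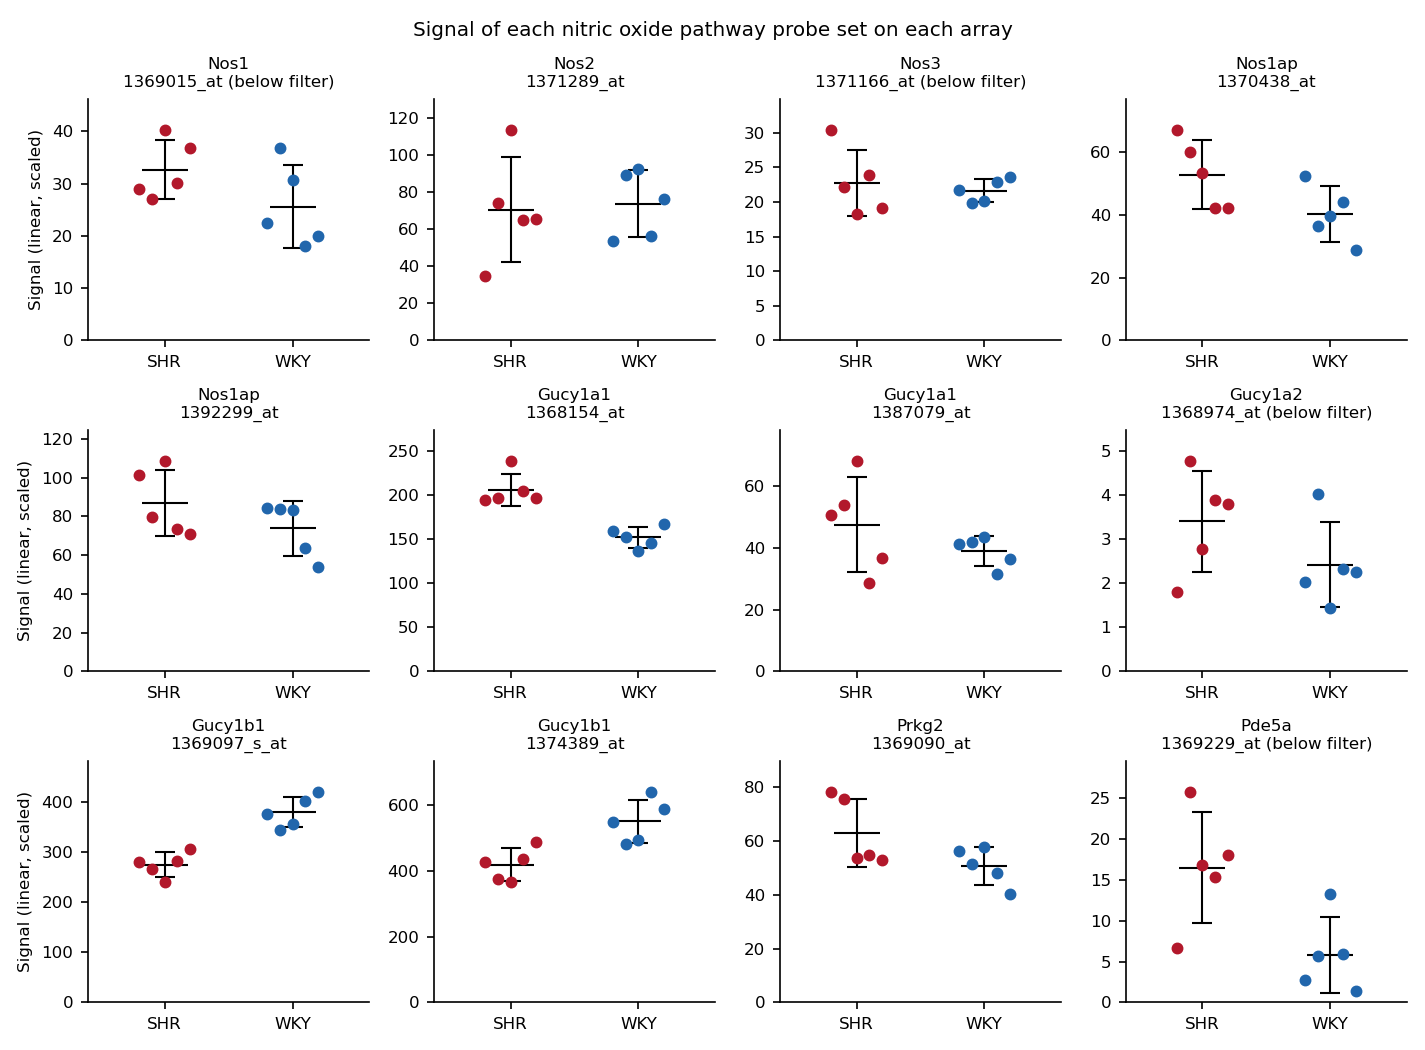
Linear scaled signal of the 12 member probe sets on each array, with 5 SHR (red) and 5 WKY (blue) points in each panel, and the mean and SD in black. In the panel of Gucy1a1 1368154_at all SHR points lie above all WKY points, in that of Gucy1b1 1369097_s_at all lie below, and in the other panels the groups overlap.

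Gucy1a1 encodes the alpha-1 subunit. On probe set 1368154_at its signal was 194, 196, 238, 204 and 196 on SHR arrays 1 to 5 and 159, 153, 136, 146 and 167 on WKY arrays 1 to 5. Every SHR array stood above every WKY array, and SHR 3 was the highest of all. The means were 206 ± 18.5 for SHR and 152 ± 11.8 for WKY (SD, n = 5), a 1.32-fold higher signal in SHR on the log2(signal + 16) scale, with a log2 difference of 0.40 ± 0.077 (SE; 95% interval 0.24 to 0.56; limma adjusted p = 0.00586). Without SHR 3 the difference was 0.35 ± 0.073 and still passed (adjusted p = 0.0125).

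The second Gucy1a1 probe set, 1387079_at, was dimmer, at 50.5, 53.8, 67.9, 28.6 and 36.6 in SHR and 41.1, 41.7, 43.4, 31.6 and 36.3 in WKY. SHR 1, 2 and 3 lay above all WKY arrays and SHR 4 below all of them, so the groups overlapped. Its log2 difference of 0.18 ± 0.15 (95% interval -0.14 to 0.51) did not pass (limma adjusted p = 0.530). Whether the probe sets of Gucy1a1 differ in their strain difference was tested on the log2 difference between them within each array, in a limma fit over all 3287 such pairs of kept probe sets of a gene. For Gucy1a1 the strain difference of the brighter exceeded that of the dimmer by 0.22 ± 0.15 (95% interval -0.11 to 0.54; adjusted p = 0.478), which did not pass, against 3.92% of all pairs that did.

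Gucy1b1 encodes the beta-1 subunit, which carries the haem that binds nitric oxide. On probe set 1369097_s_at its signal was 281, 267, 240.4, 282 and 307 in SHR and 377, 345, 357, 403 and 419.6 in WKY. Every SHR array stood below every WKY array. The means were 275 ± 24.3 and 380.5 ± 30.9 (SD, n = 5), so that SHR was 1.36-fold lower, and the log2 difference was -0.44 ± 0.074 (95% interval -0.60 to -0.29; limma adjusted p = 0.00174). The suffix of this probe set marks probes that may match more than 1 transcript.

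The brighter Gucy1b1 probe set, 1374389_at, read 428, 376, 366, 435 and 488 in SHR and 549, 482, 494, 639 and 589.5 in WKY. The groups overlapped by a single pair of arrays, SHR 5 above WKY 2, and 4 of the 5 SHR arrays lay below all WKY arrays. The log2 difference was -0.38 ± 0.088 (95% interval -0.57 to -0.20; limma adjusted p = 0.0186), a 1.30-fold lower signal in SHR. The strain differences of both Gucy1b1 probe sets differed by 0.062 ± 0.094 (95% interval -0.14 to 0.26; adjusted p = 0.771).

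**Figure D2:**
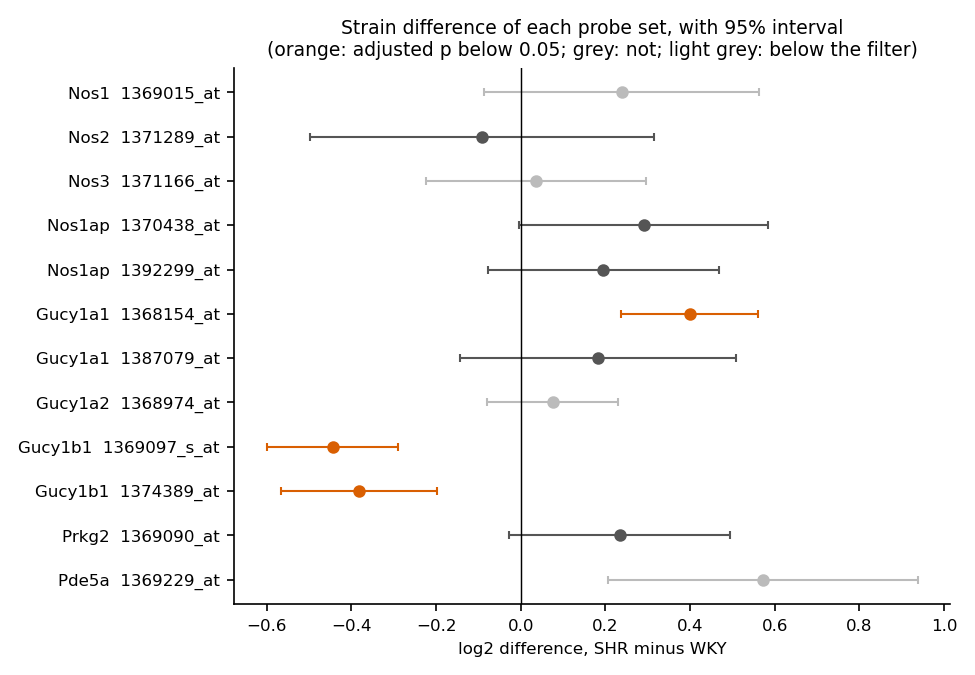
Log2 difference (SHR minus WKY) of each member probe set with its 95% interval from limma; orange points passed, dark grey points did not, and light grey points are probe sets below the filter, taken from the fit without it. The points of Gucy1a1 1368154_at (0.40) and of both Gucy1b1 probe sets (-0.44 and -0.38) stand in orange, and the intervals of the other kept probe sets cross 0.

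The ratio of both subunit signals within an array was higher in SHR. The log2 ratio of Gucy1a1 (1368154_at) over Gucy1b1 (1374389_at) was -1.08, -0.89, -0.59, -1.03 and -1.25 in SHR and -1.70, -1.56, -1.75, -2.02 and -1.73 in WKY. All SHR arrays lay above all WKY arrays. The ratios averaged -0.97 ± 0.25 for SHR and -1.75 ± 0.17 for WKY (SD, n = 5), a change of 0.78 on the log2 scale, or 1.72-fold. Signals of different probe sets are not on a common scale, so the change of the ratio can be read and its level cannot. No test was made of it, since the pair was chosen with its change known.

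**Figure D3:**
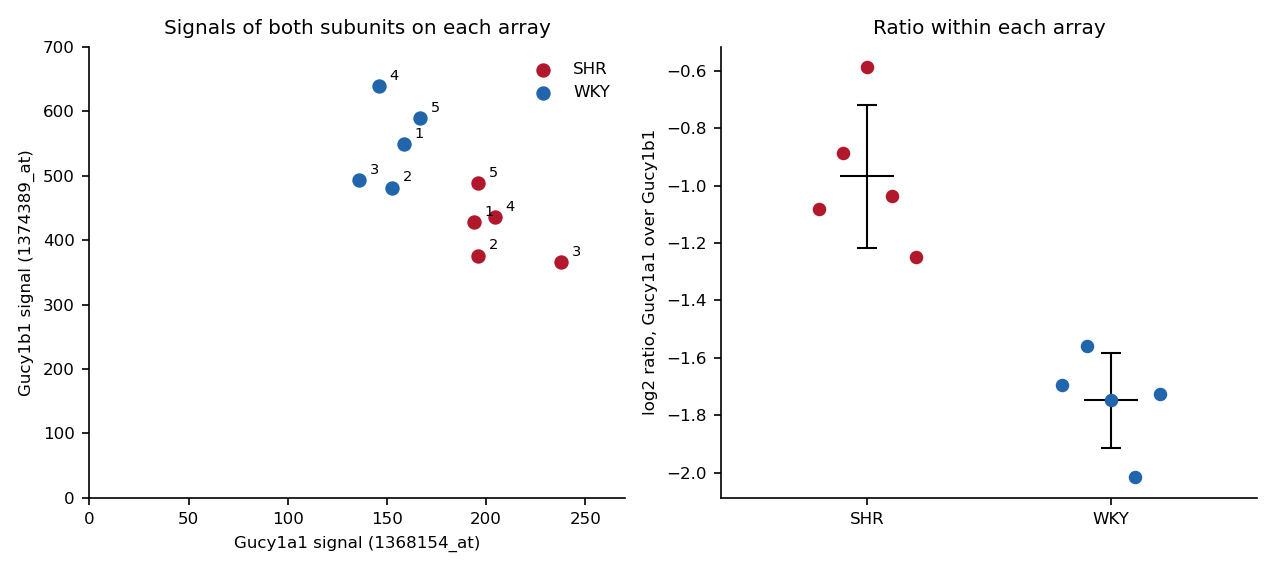
Left, the signal of Gucy1b1 (1374389_at) against that of Gucy1a1 (1368154_at) on each array, numbered by replicate within SHR (red) and WKY (blue); right, the log2 ratio of Gucy1a1 over Gucy1b1 on each array with mean and SD. The SHR arrays lie to the right of and mostly below the WKY arrays, and their ratios (-1.25 to -0.59) do not overlap with those of WKY (-2.02 to -1.56).

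An array had a median signal of 44.2 to 49.8 among SHR and 39.6 to 45.7 among WKY, with SHR 2 and SHR 3 highest and WKY 4 and WKY 5 lowest. The same arrays had the lowest and the highest Gucy1b1 signals, on both probe sets. With the median signal as a covariate, the difference of Gucy1b1 was -0.12 ± 0.076 on 1374389_at (limma adjusted p = 0.617) and -0.26 ± 0.075 on 1369097_s_at (adjusted p = 0.139), whereas that of Gucy1a1 was 0.39 ± 0.10, of like size, with an adjusted p of 0.104. All 3 calls ended in that fit. The change of the subunit ratio was smaller there too, since the difference of 1374389_at went from -0.38 to -0.12. The covariate overlaps with strain, and its part in the result was not tested.

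Leaving out arrays bore on 1 of the 3 calls. The difference of 1374389_at no longer passed without SHR 2 (-0.35; adjusted p = 0.0552), WKY 4 (-0.33; 0.0621) or WKY 5 (-0.36; 0.0607), without both SHR 2 and SHR 3 (-0.27; 0.119) and without both WKY 4 and WKY 5 (-0.28; 0.227). Those of Gucy1a1 1368154_at and Gucy1b1 1369097_s_at passed in each of these fits, at 0.42 (adjusted p = 0.0327) and -0.37 (0.0419) without both WKY 4 and WKY 5. With all arrays but without the intensity trend, 1374389_at did not pass either (-0.38; limma adjusted p = 0.0552), while the other calls stood.

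**Figure D4:**
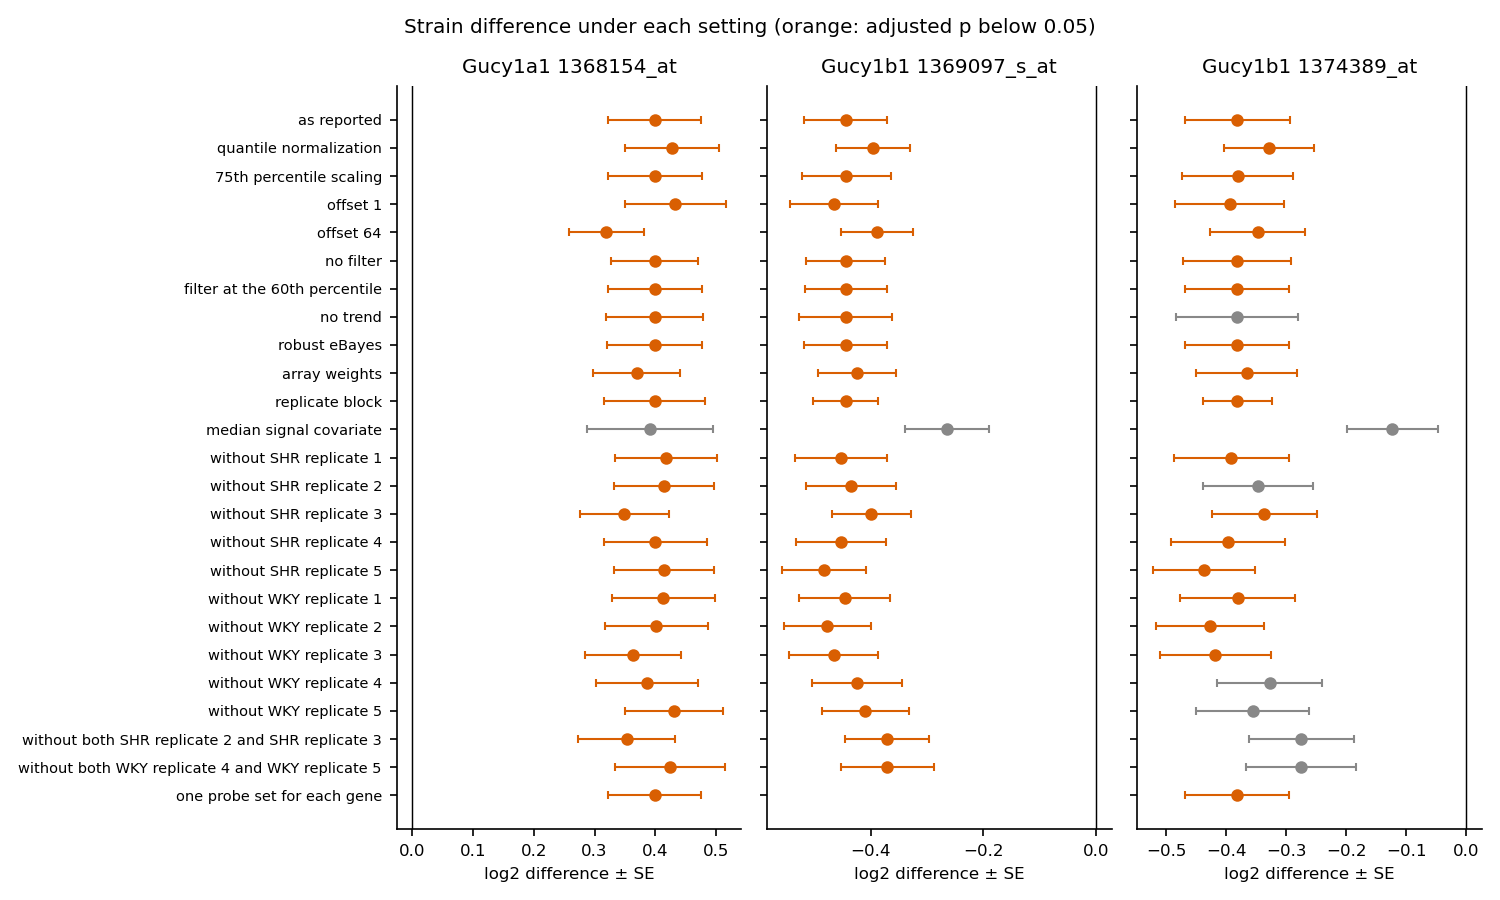
Log2 difference (SHR minus WKY) ± SE of the 3 passing probe sets as reported and under each other setting; orange points have a limma adjusted p below 0.05 and grey points do not. Gucy1a1 1368154_at keeps values between 0.32 and 0.43, while Gucy1b1 1374389_at moves to -0.12 with the median-signal covariate.

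Gucy1a2, the gene of the alpha-2 subunit, had signals between 1.81 and 4.77 on SHR arrays and between 1.43 and 4.03 on WKY arrays. Its mean was the lowest of the 12 probe sets in either strain, and its values lie far below the 40th percentile of every array (26.3 to 35.9), so no ratio to Gucy1b1 was formed. In the fit without the filter, in which 2.18% of 31042 probe sets passed, the log2 difference was 0.075 ± 0.072 (limma adjusted p = 0.608).

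None of the synthases passed. Nos1, the neuronal synthase, read 29.0, 27.0, 40.2, 30.1 and 36.9 in SHR and 22.4, 36.9, 30.7, 18.0 and 19.9 in WKY. Of the WKY arrays 3 lay below all SHR arrays, but WKY 2 and WKY 3 lay within the SHR range. The probe set missed the filter, and without the filter its log2 difference was 0.24 ± 0.15 (95% interval -0.086 to 0.56; limma adjusted p = 0.425). It was 0.10 with quantile normalization, 0.085 without both WKY 4 and WKY 5, and 0.053 with the median-signal covariate.

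Nos2, the inducible synthase, was the synthase bright enough for the filter, at 34.8, 74.0, 113, 65.0 and 65.2 in SHR and 53.8, 89.0, 92.5, 56.5 and 76.3 in WKY. SHR 1 was the lowest and SHR 3 the highest of the 10 arrays, so that SHR spanned the whole WKY range. The log2 difference was -0.091 ± 0.19 (95% interval -0.50 to 0.32; limma adjusted p = 0.830). It was 0.085 without SHR 1, -0.22 with array weights and -0.41 with the median-signal covariate.

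Nos3, the endothelial synthase, read 30.3, 22.2, 18.3, 23.8 and 19.1 in SHR and 21.7, 19.8, 20.1, 22.9 and 23.5 in WKY. The WKY arrays were close together, with SHR 1 and SHR 4 above all of them and SHR 3 and SHR 5 below all of them. It missed the filter, and its log2 difference without the filter was 0.036 ± 0.12 (95% interval -0.23 to 0.30; limma adjusted p = 0.906), a sign that turned with quantile normalization.

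Nos1ap encodes an adaptor that binds the PDZ domain of the neuronal synthase and links it to other proteins. On 1370438_at its signal was 67.0, 60.1, 53.3, 42.1 and 42.2 in SHR and 52.5, 36.4, 39.7, 44.2 and 28.9 in WKY. SHR 1, 2 and 3 lay above every WKY array. The log2 difference was 0.29 ± 0.14 (95% interval -0.0041 to 0.58; limma adjusted p = 0.244), and 0.12 with the median-signal covariate.

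The brighter Nos1ap probe set, 1392299_at, read 101, 79.7, 108, 73.5 and 71.0 in SHR and 84.1, 83.7, 83.3, 63.6 and 54.0 in WKY. SHR 1 and SHR 3 were above all WKY arrays, and WKY 4 and WKY 5 below all SHR arrays. Its log2 difference was 0.19 ± 0.13 (95% interval -0.078 to 0.47; limma adjusted p = 0.409), and -0.12 with the median-signal covariate. Strain differences of both probe sets differed by -0.096 ± 0.13 (adjusted p = 0.737).

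Prkg2, the type II cGMP-dependent protein kinase, read 78.1, 75.7, 53.6, 54.7 and 53.1 in SHR and 56.3, 51.6, 57.9, 48.2 and 40.3 in WKY. SHR 1 and SHR 2 stood apart above the rest, and the other three lay within the WKY range. The log2 difference was 0.23 ± 0.12 (95% interval -0.027 to 0.49; limma adjusted p = 0.293), and 0.064 with the median-signal covariate.

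Pde5a, the cGMP-specific phosphodiesterase, was dim, at 6.68, 25.7, 16.8, 15.3 and 18.0 in SHR and 2.73, 5.73, 13.3, 5.92 and 1.40 in WKY. In SHR 4 of 5 arrays lay above all WKY arrays, the exception being SHR 1. The probe set missed the filter. Without the filter its log2 difference was 0.57 ± 0.17 (95% interval 0.21 to 0.94; unadjusted p = 0.00494), which did not pass after adjustment over 31042 probe sets (limma adjusted p = 0.103). Of 22 other settings it passed in 1, without SHR 1, at 0.69 ± 0.16 (adjusted p = 0.0471), and with the median-signal covariate it was 0.33 (adjusted p = 0.700). Its size rests on the offset added before the logarithm, at 0.20 with an offset of 64 and 1.51 with an offset of 1.

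Of the other genes of nitric oxide and cGMP signalling, 35 of 62 listed had a kept probe set, and 1 was higher and 0 lower in SHR, against 1.67% and 2.31% of 10668 genes represented by their brightest kept probe set (3.97% in either direction). The median log2 difference of the 35 was 0.0092, and that of all genes 0.0020. Groups that did not overlap were found for 0 of the 35, against 6.13% of kept probe sets.

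Calm2 encodes calmodulin, the calcium sensor that activates the constitutive synthases. It was the gene that passed, with a mean of 3593 ± 296 for SHR and 3006 ± 224 for WKY (SD, n = 5) and 4 of 5 SHR arrays above all WKY arrays. Its log2 difference of 0.26 ± 0.068 (limma adjusted p = 0.0442) lay close to the threshold. The call ended in 8 of the 10 fits with an array left out, and with quantile normalization the difference was 0.053 (adjusted p = 0.394).

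By role, 8 genes of L-arginine supply and competition were tested and 0 passed, with 1 at an unadjusted limma p below 0.05, a share that was 21.0% over all kept probe sets. That gene was Slc7a3, a cationic amino acid transporter (0.23 ± 0.097; adjusted p = 0.175). The transporter Slc7a1, the citrulline-recycling enzymes Ass1 and Asl, arginases Arg1 and Arg2 and hydrolases Ddah1 and Ddah2 had differences from -0.10 to 0.14. The hydrolases degrade methylarginine inhibitors of the synthases. The other kept probe set of Asl differed by 0.16 ± 0.11 and that of Slc7a1 by -0.017 ± 0.083.

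Of 4 genes of the cofactor tetrahydrobiopterin, 0 passed and 1 had an unadjusted p below 0.05 in limma, Qdpr, which regenerates the cofactor (-0.16 ± 0.063; adjusted p = 0.149). The rate-limiting enzyme gene Gch1 differed by 0.31 ± 0.17 (adjusted p = 0.319). Of 7 partners of the synthases, Calm2 passed, and 2 had an unadjusted limma p below 0.05, Calm2 and the chaperone gene Hsp90ab1 (0.15 ± 0.060; adjusted p = 0.173). The postsynaptic scaffold Dlg4, which holds the neuronal synthase at the synapse, differed by -0.010 ± 0.085. The caveolin gene Cav1, an inhibitor of the endothelial synthase, differed by -0.060 ± 0.086. These values are those of the brightest kept probe set. Other kept probe sets gave 0.063 ± 0.14 for Hsp90ab1, -0.027 ± 0.12 and 0.22 ± 0.15 for Dlg4, and -0.012 ± 0.097 for Cav1.

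Of 2 other receptor and ligand genes of guanylate cyclase signalling, the natriuretic peptide receptor gene Npr2 (-0.13 ± 0.074; limma adjusted p = 0.346) and the ligand gene Nppc (0.16 ± 0.14; 0.546), 0 passed, and 0 had an unadjusted p below 0.05. Of 6 genes listed as other cGMP phosphodiesterases or subunits of them 0 passed in limma, 0 had an unadjusted p below 0.05, and 1 difference was above 0. The widest was that of Pde9a, a cGMP-specific enzyme, at -0.52 ± 0.25 (adjusted p = 0.238), with SHR 2 at 21.9 and the other SHR arrays from 88.5 to 117. Without SHR 2 the Pde9a difference was -0.19. Pde10a differed by -0.13 ± 0.14 on its brightest probe set and by 0.25 ± 0.13 on its other kept probe set. Of 8 targets and exporters of cGMP 0 passed and 1 had an unadjusted p below 0.05 in limma, Irag1, a substrate of the type I kinase (0.26 ± 0.12; adjusted p = 0.211).

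**Figure D5:**
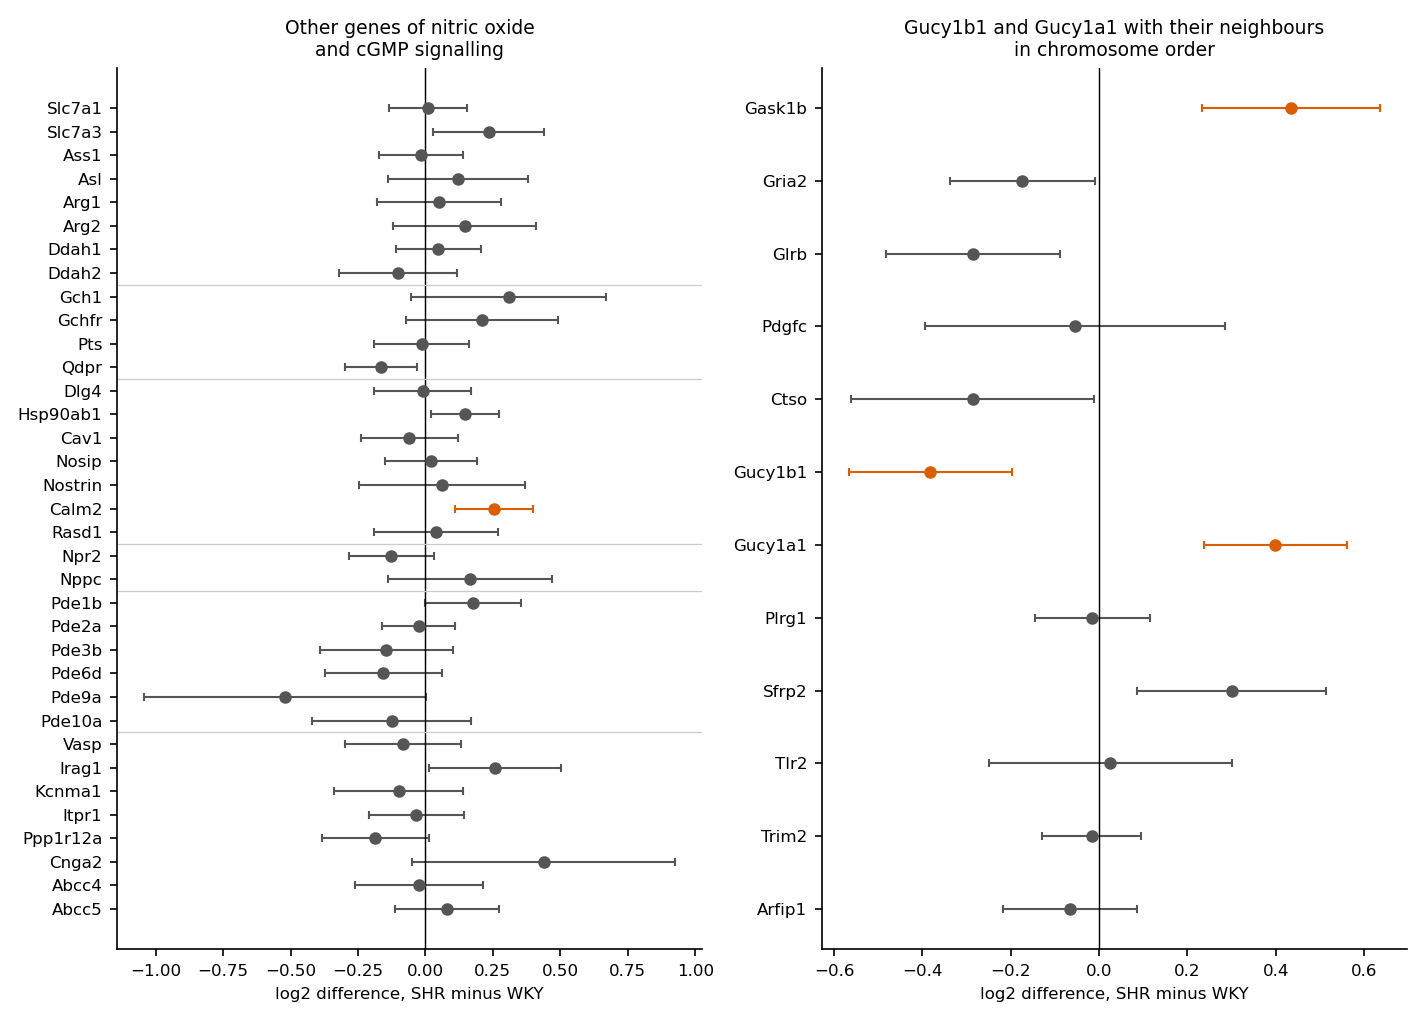
Log2 difference (SHR minus WKY) with 95% interval from limma, left for 35 other genes of nitric oxide and cGMP signalling, with grey lines between roles, and right for Gucy1b1, Gucy1a1 and the 5 nearest measured genes on each side, in chromosome order. Orange marks an adjusted p below 0.05, which Calm2 (0.26) reaches on the left and Gask1b (0.44), Gucy1b1 and Gucy1a1 on the right.

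Of the genes around Gucy1b1 and Gucy1a1, the 5 nearest on each side with a kept probe set were examined. Beyond Gucy1b1 lie, in order, Ctso, Pdgfc, Glrb, Gria2 and Gask1b, and beyond Gucy1a1 lie Plrg1, Sfrp2, Tlr2, Trim2 and Arfip1. Of these 10 genes 1 was higher and 0 lower in SHR, against 1.67% and 2.31% of all genes. The median log2 difference was -0.036, and the differences ran from -0.29 to 0.44.

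The gene that passed was Gask1b, which codes for a Golgi-associated kinase family protein, the farthest on the Gucy1b1 side. It read 73.1, 91.8, 92.8, 78.0 and 77.4 in SHR and 59.1, 56.1, 51.1, 55.5 and 62.3 in WKY, and the groups did not overlap. The log2 difference was 0.44 ± 0.096 (limma adjusted p = 0.0141), and it did not pass with the median-signal covariate (0.39; 0.219), without both SHR 2 and SHR 3 (0.34; 0.0967) or without both WKY 4 and WKY 5 (0.46; 0.0700).

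The 3 genes nearest to Gucy1b1 did not pass. The lysosomal protease gene Ctso differed by -0.29 ± 0.13 (limma adjusted p = 0.217), the growth factor gene Pdgfc by -0.055 ± 0.16 and the glycine receptor beta subunit gene Glrb by -0.29 ± 0.093 (adjusted p = 0.0930). Glrb passed without SHR 5 (-0.37; adjusted p = 0.0110) and with the replicate number as a block (-0.29; 0.0224), and in 22 other settings it did not. Gria2, an AMPA receptor subunit, differed by -0.17 ± 0.077. With the median-signal covariate the differences were -0.0013 for Ctso, -0.050 for Glrb (adjusted p = 0.917) and -0.021 for Gria2.

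On the Gucy1a1 side the nearest measured gene, the spliceosome gene Plrg1, differed by -0.015 ± 0.062 (95% interval -0.15 to 0.12). The Wnt antagonist gene Sfrp2 differed by 0.30 ± 0.10 (limma adjusted p = 0.104), with groups that did not overlap. Tlr2, Trim2 and Arfip1 had differences from -0.066 to 0.026.

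The tissue carried transcripts that mark the NTS and its glia. Of the NTS markers examined, Th, Dbh, Prlh, Gcg, Cartpt and Calcr had a kept probe set, while Tlx3 missed the filter. Of these 6, 1 was lower in SHR, Prlh (-0.42 ± 0.11; limma adjusted p = 0.0379). Th (-0.18), Dbh (-0.27) and Gcg (-0.50) had differences below 0 and Cartpt (0.074) and Calcr (0.11) above 0, none of which passed. NTS sums overlapped, at 2423 to 2877 on SHR arrays and 2722 to 3668 on WKY arrays. Cerebellar sums overlapped (1094 to 1148 in SHR, 1048 to 1264 in WKY), and 0 of 4 tested markers passed. Choroid plexus sums overlapped too (110 to 159 and 85.4 to 263), and 0 of 2 passed. WKY 1 read 182 for the choroid plexus gene Ttr, and the other WKY arrays 26.9 to 62.2. It was also the highest array for Th, Dbh, Prlh and Gcg. The part of dissection was not tested. Of 5 astrocyte markers 0 passed, with sums of 8954 to 10517 and 8939 to 10167. Of 4 oligodendrocyte markers Mobp was lower (-0.34; limma adjusted p = 0.0126), while Mbp differed by 0.28 (adjusted p = 0.0992), and the sums overlapped (5162 to 6618 and 4831 to 6369). Summed signals overlapped between strains for neurons (8545 to 9990.4 in SHR, 7759 to 9176 in WKY), endothelium (673 to 739 and 626 to 747) and smooth muscle and pericytes (277 to 355 and 247 to 286), cells in which the cyclase is known to be present. Of the markers tested, 1 of 7 neuronal (Snap25, 0.33) was higher and 1 of 6 endothelial (Vwf, -0.52) was lower. The other neuronal markers went both ways. Gad1 (-0.30; limma adjusted p = 0.0619) and Slc17a6 (-0.081) had differences below 0. Nefl (0.16), Syt1 (0.099), Stmn2 (0.094) and Rbfox3 (0.063) had differences above 0. Gad2 missed the filter, and without it differed by -0.18. Of smooth muscle and pericyte markers 0 of 4 passed, where 3.97% of all genes did. Their differences were all above 0, at 0.38 for Des, 0.19 for Acta2, 0.081 for Myh11 and 0.047 for Rgs5. Tagln, Cnn1 and Pdgfrb missed the filter, and without it differed by 0.46, 0.18 and -0.15. The other endothelial markers did not go with Vwf. Pecam1 differed by 0.40 (limma adjusted p = 0.0851), with groups that did not overlap, and Tie1 by 0.36 (0.129). Tek differed by 0.14, Cldn5 by -0.0079 and Flt1 by -0.028. Microglial sums did not overlap, at 1205 to 1291 in SHR and 1487 to 1715 in WKY, with 4 of 7 markers lower, against 2.31% of all genes. The lower ones were Aif1 (-0.52), C1qb (-0.46), C1qa (-0.42) and Lyz2 (-0.40). C1qc (-0.15), Csf1r (-0.13) and Cx3cr1, which was above 0 (0.19), did not pass. The part of cell composition in the differences of Gucy1a1 and Gucy1b1 was not tested, and in bulk tissue fewer cells of a type and less RNA in each cell cannot be told apart.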

How the data were processed

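Total RNA of dissected NTS was amplified and measured on Affymetrix Rat 230 2.0 arrays, 5 from each strain, per the labels' protocols. The deposited table gives 1 linear intensity for each probe set and array, and GCOS 1.2, which the submitters' processing notes name, was used by the authors; the sources used here do not give its background step, its summarisation or its detection calls. On every array the mean after trimming 2% at each end was 100, so arrays had been scaled and no further normalization was applied. No scan date is in the table.

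The 57 control probe sets were left out. Probe sets were named from the platform annotation, and old symbols were replaced by way of their Entrez identifiers (RefSeq, GRCr8): 20826 had 1 gene symbol, 436 several and 9780 none. log2(signal + 16) was fitted with strain as the only term in limma 3.58.1 (R 4.3.3; lmFit and eBayes with an intensity trend), after the filter on dim probe sets, and the p-values were adjusted over all 18846 kept probe sets. Probe sets below the filter were taken from the same fit without it. Pairs of probe sets were fitted without the trend. The fits were tried on simulated data with noise drawn independently for each probe set. Such data hold no shift shared by the probe sets of an array, so they cannot bear on the part of the median signal. No pair of arrays shared more than 2 identical values.

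The members, gene lists, alternatives and the rule for named genes (all members, passing pathway genes, the smallest p of each role, all neighbours) were chosen with earlier results of these data known. Asl, Arg1, Arg2, Ass1, Slc7a1, Ddah1, Ddah2, Gch1, Dlg4, Hsp90ab1, Cav1, Nppc and Pde10a were named in addition after their values were seen. Alternatives were other scalings, offsets, filters and variance models, weights for arrays, a block for the replicate number, the median signal as a covariate, 1 probe set for each gene, and leaving out arrays. Leaving out both WKY 4 and WKY 5, and all alternatives for the subunit ratio, were added after seeing the data. Promoter windows came from RefSeq (GRCr8), which held 7 of the 10 members.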

Additional observations from a re-analysis of the deposited data

Results flagged for a closer look

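The Gucy1a1 signal of SHR 3 on probe set 1368154_at, 238, stood apart from the other SHR arrays, which ran from 194 to 204. Its gap to the next array was 0.762 of the SHR range, above the limit of 0.71 for 5 samples. In all 56 groups of 5 arrays were examined in this way and 1 stood out, while chance gives about 1 in 20.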

How the results depend on the processing

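The median-signal covariate changed the most: 207 of 18846 probe sets passed against 803, 0 member probe sets against 3, 0 pathway genes, 0 neighbours and 22 probe set pairs against 129. Without both SHR 2 and SHR 3 the counts were 512 probe sets, 55 pairs, 0 pathway genes and 0 neighbours, and without both WKY 4 and WKY 5 they were 257, 24, 0 and 0. Pathway genes numbered 0 with quantile normalization, the 75th percentile, no filter, no trend and array weights, and 2 neighbours passed with no trend. The stricter filter left 76 pairs. Same-numbered arrays correlated at 0.038 to 0.28 in their deviations from the strain means, and for 3 of the 5 numbers the array of the other strain that matched best had the same number, a hint of pairing from the data, not the design. Since 2 of the 5 correlations were below 0.1 and no label says what a number marks, the fit without the block was kept. With the replicate number as a block 1214 probe sets, 2 pathway genes and 2 neighbours passed, and the 3 member calls stood (Gucy1a1 adjusted p = 0.0148, Gucy1b1 0.000849 and 0.00232). With 1 array left out the counts ran from 480 to 976 probe sets (480 without WKY 4 and 481 without WKY 5), 2 to 3 member probe sets, 0 to 1 pathway genes, 1 to 2 neighbours and 56 to 116 pairs, and the subunit ratio changed by 0.69 to 0.85. The change of the ratio was smaller with the median-signal covariate, where Gucy1a1 differed by 0.39 and Gucy1b1 1374389_at by -0.12. Signs turned for differences that did not pass: with quantile normalization Nos3 (-0.094), Plrg1 (0.029), Tlr2 (-0.084) and Trim2 (0.017); with the covariate Nos1ap 1392299_at (-0.12), Gucy1a1 1387079_at (-0.14), Irag1 (-0.022) and Trim2 (0.031); with array weights Tlr2 (-0.0018). With 1 array or a pair of arrays left out, differences ran from -0.35 to 0.085 for Nos2 (above 0 without SHR 1), -0.031 (without SHR 1) to 0.096 for Nos3, -0.021 (without both SHR 2 and SHR 3) to 0.30 for Gucy1a1 1387079_at, -0.24 to 0.074 (without SHR 5) for Pdgfc, -0.044 to 0.012 (without SHR 2) for Plrg1, -0.071 (without WKY 3) to 0.10 for Tlr2, which was also -0.0048 without SHR 2 and -0.0027 without both SHR 2 and SHR 3, -0.042 to 0.010 (without both SHR 2 and SHR 3) for Trim2, also above 0 without SHR 2 (0.0025) and without WKY 5 (0.0010), and -0.12 to 0.0050 (without both WKY 4 and WKY 5) for Arfip1. The cause was not tested. The number of arrays limits the precision, and probe sets below the filter were not judged against background.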
